A study of Mus musculus with 16 samples.

Results

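The 9 genes described here encode STAT transcription factors and their feedback inhibitors: Stat2, Stat3, Stat4, Stat5a, Stat5b and Stat6, and Socs1, Socs3 and Cish. They were chosen by name, each was read from the brightest probe set that carries its symbol on the array, and all 9 were found among the 19938 genes measured. The cells were type 1 conventional dendritic cells (cDC1), the dendritic cells that present antigen from dead cells to CD8 T cells, sorted from inguinal lymph nodes of C57BL/6 mice. Every animal had received regressor tumours, which the host goes on to reject, in the flank; cells were taken on day 6. Het cells came from WDFY4 Het mice, which keep an intact copy of the gene beside the altered one, and KO cells from WDFY4 KO mice; WDFY4 is needed by cDC1 to cross-present cell-associated antigen. Nodes from the flank of the tumour are called draining and those from the other flank non-draining, and the labels describe the cDC1 of the former as activated and of the latter as unactivated. All nodes were digested with collagenase B and DNase I before the sort, and each combination of genotype (Het or KO) and node (draining or non-draining) had 4 arrays, numbered 1 to 4. Whether the 4 arrays of a group stand for different animals is not stated in the labels, and p-values therefore describe only the spread among these samples, some of which may be technical.

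STAT proteins wait in the cytoplasm until a cytokine receptor and its JAK kinases phosphorylate them; they then pair up, enter the nucleus and switch genes on. STAT2 works with IRF9 for type I interferon, STAT3 for the IL-6 and IL-10 families, STAT4 for IL-12, STAT5A and STAT5B for GM-CSF and IL-2 type cytokines, and STAT6 for IL-4 and IL-13. SOCS1, SOCS3 and CISH are made in response to these signals and damp them. The arrays measure transcripts, so phosphorylation of STAT proteins was not measured.

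The sorted cells carried the transcripts of their label: all 16 cDC1 markers examined, Xcr1 and Clec9a among them, had a mean level above the median of all genes. T cell transcripts were present too, with 10 of 11 measured markers above that median and a summed intensity between 905 and 2868 per array. Above that median were also 5 of 5 plasmacytoid dendritic cell, 6 of 7 migratory dendritic cell, 8 of 10 B cell and 6 of 9 macrophage and monocyte markers. The counts were 3 of 5 for plasma cell, 4 of 8 for NK and cytotoxic cell, 3 of 7 for cDC2 and 4 of 7 for stromal markers. For neutrophils it was 0 of 6 and for erythroid cells 0 of 1. A median splits all genes evenly, so a list near an even split does not show that its cells were present. The targeted gene, Wdfy4, gave intensities between 1786 and 2785 in KO draining, 1923 and 3165 in KO non-draining, 2463 and 3450 in Het draining and 2278 and 3332 in Het non-draining arrays. These ranges overlap between genotypes; which part of the gene was deleted is not stated, and a probe set that lies outside it checks nothing. The array KO draining 2 stood apart, with a mean correlation of 0.976 with the other 15 arrays against 0.984 to 0.990 for the rest. Some results from the brightest probe sets are given with and without it. In such bulk samples fewer cells of a type and less RNA per cell cannot be told apart.

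Stretches upstream of 4 of the genes are shown because they hold the letters that STAT complexes are known to bind. In RefSeq promoters of the GRCm38.p6 assembly, the 250 bases before each start were searched on both strands for the palindromes bound by STAT dimers with a shorter and a longer spacer, and for the interferon-stimulated response element bound by the STAT2 and IRF9 complex. Matches are in capitals, and overlapping matches run together.
Stat2, chr10:128270256-128270317, plus strand: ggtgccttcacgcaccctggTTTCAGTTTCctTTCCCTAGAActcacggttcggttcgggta
Stat4, chr1:52008123-52008172, plus strand: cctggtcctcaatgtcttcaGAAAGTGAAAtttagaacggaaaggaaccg
Socs1, chr16:10785584-10785639, minus strand: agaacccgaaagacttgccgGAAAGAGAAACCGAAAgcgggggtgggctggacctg
Socs3, chr11:117969492-117969540, minus strand: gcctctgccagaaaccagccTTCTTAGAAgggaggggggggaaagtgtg
The interferon response element was found in 3 of the 12 promoters that RefSeq lists for the 9 genes and in 2.98% of 32851 mouse promoters. In Stat2 the match began 222 bases before the start on the opposite strand, in the second of the Stat4 promoters it began 97 bases before, and in Socs1 there were 2 overlapping matches, 83 and 77 bases before. The shorter-spaced STAT palindrome was found in the Socs3 promoter, 154 bases before the start, and in 7.02% of all promoters. The longer-spaced STAT palindrome was found in the Stat2 promoter, 210 bases before, and in 5.85% of all. The window upstream of Cish held none of these motifs. Stat5b, Stat5a and Stat3 are neighbours on chromosome 11 in the same assembly. A match describes the letters and is not evidence of binding.

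All 9 genes were measured on every array, and their groups overlapped. Values are RMA-normalized intensities, and differences are on the scale of log2(intensity + 1), which understates changes of dim genes. Mean levels lay between the 51.2nd percentile of all genes (Cish) and the 98.3rd (Stat3), and probe sets of different genes are not compared with each other in level. When the 4 group means of each gene were put in order, only 1 of 27 neighbouring pairs differed by more than the larger SD of the pair, Cish in Het non-draining over KO non-draining cells. Stat4 had the widest spread of the 9: its pooled SD within groups was 0.72 on the log2 scale, the 99.9th percentile of all genes, against a median of 0.18 for all genes. Its highest intensity was 9.0 times its lowest, against 1.40 times for Stat6 and 2.14 times for Cish.

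**Figure D1:**
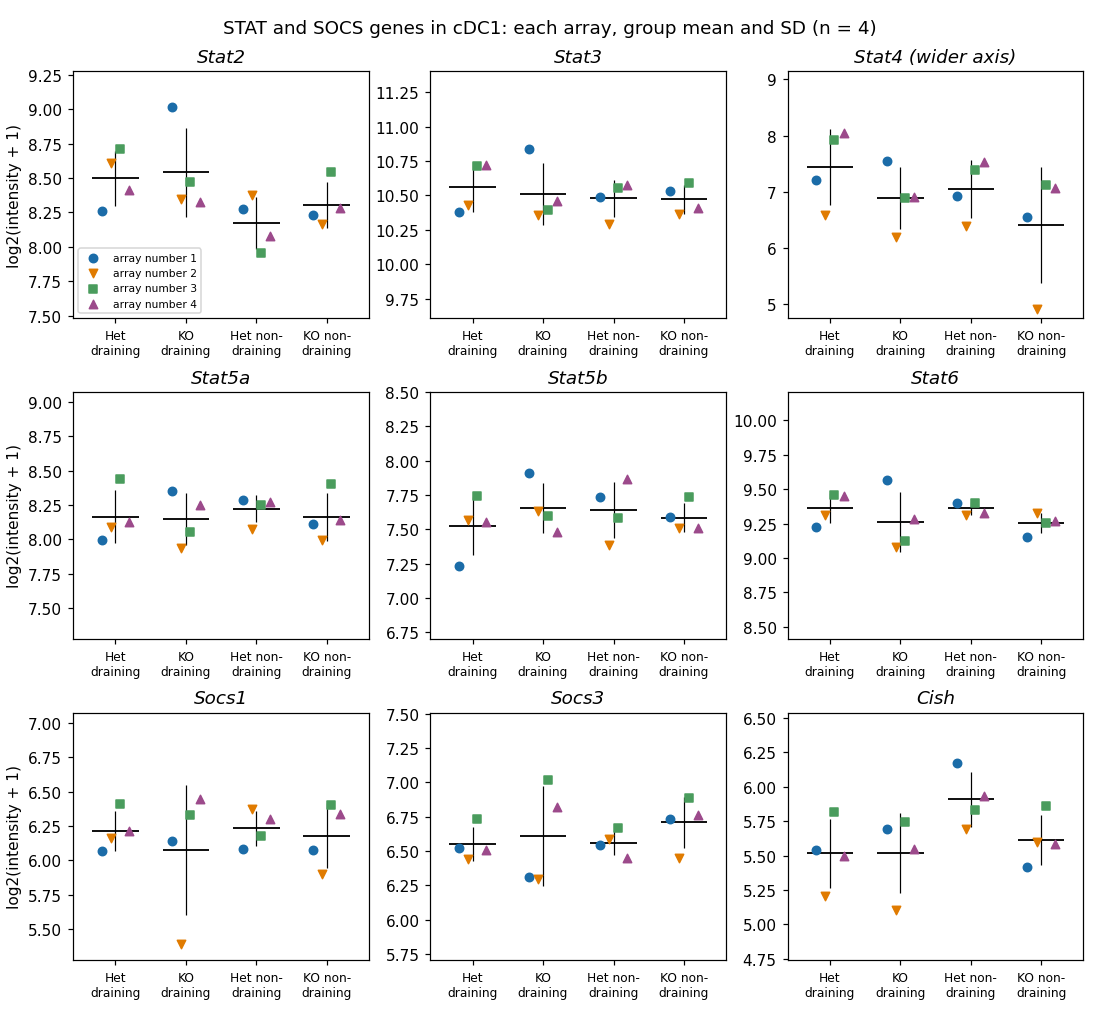
Level of each of the 9 genes as log2(intensity + 1) on every array, by genotype and node, with marker shape and colour for the array number; horizontal bars are group means and vertical lines the SD (n = 4). The groups overlap for every gene, and the array numbered 2 is the lowest Stat4 value in all 4 groups.

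No STAT or SOCS gene passed in any comparison of genotype or node. Of the 9 genes 0 had an adjusted p under 0.05 in limma (Benjamini-Hochberg over all 19938 genes) in KO versus Het cells of either node, in draining versus non-draining cells of either genotype, in the interaction, or in the means over nodes or genotypes. The background was 0% of all genes in each of these 7 comparisons. At an unadjusted p below 0.05 there were 2 of 9 genes, Stat2 and Cish, for draining versus non-draining in Het cells (background 3.29%) and the same 2 for the mean of both genotypes (background 3.06%). There were 0 of 9 for KO versus Het in the draining node (background 3.39%), the non-draining node (2.48%) and their mean (3.49%), for draining versus non-draining in KO cells (2.11%) and for the interaction (2.32%). No gene of the 9 had groups that did not overlap, which was so for 0.838% of all genes with KO above Het and 0.747% with KO below Het in the draining node, and 1.2% and 1.19% in the non-draining node. For draining above and below non-draining the shares were 1.4% and 0.998% in Het and 0.848% and 0.592% in KO cells. The median log2 difference of the 9 genes was -0.016 and -0.058 for KO versus Het in the draining and non-draining node, against -0.0026 and 0.0048 for all genes. It was -0.011 and 0.0087 for draining versus non-draining in Het and KO cells, against 0.0081 and 0.0018 for all genes.

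**Figure D2:**
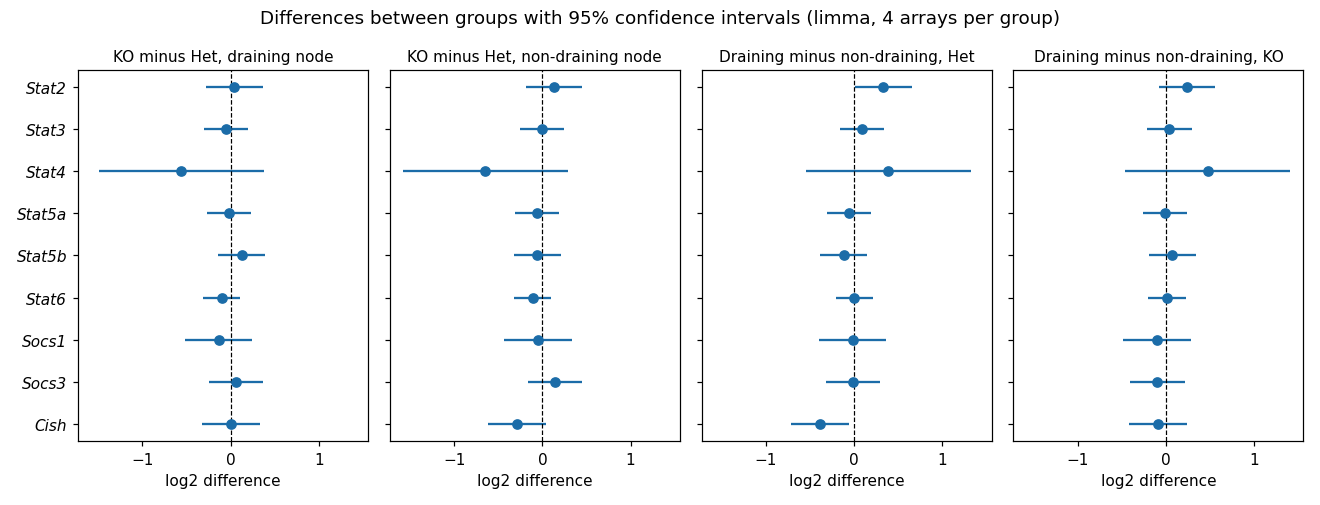
Log2 difference of each gene in the 4 comparisons of genotype and node, with 95% confidence intervals from limma over 16 arrays. Only the intervals of Stat2 and Cish for draining versus non-draining in Het cells leave out 0, and no gene passed the adjusted threshold; the intervals of Stat4 are the widest.

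Stat2, the interferon STAT, was higher on average in draining than in non-draining cells of both genotypes, without passing over all genes. In Het draining cells its intensity was 306, 390.1, 418 and 341 on arrays 1 to 4, and in Het non-draining cells 308, 331, 247 and 269. In KO draining cells it was 518, 325, 354 and 321, and in KO non-draining cells 299, 286, 372 and 309.8. The draining arrays thus lay mostly above the non-draining ones, in 14 of 16 pairs in Het and 13 of 16 in KO cells, while the groups overlapped and array 1 of KO draining was the highest of all. The difference was 0.33 ± 0.15 (SE) in Het cells, with p = 0.0857 in a two-sided exact permutation test, and 0.24 ± 0.15 in KO cells, with an exact p of 0.229; the smallest p that 4 against 4 arrays can give is 0.0286. Over both genotypes it was 0.28 ± 0.11 (95% interval 0.057 to 0.51), with an exact permutation p of 0.02 and, in limma, an adjusted p of 0.998. Within numbers 1 and 2 the mean was 0.30 and within numbers 3 and 4 it was 0.27, but the genotypes changed places: Het cells gave 0.11 and 0.55, and KO cells 0.49 and -0.010. Without KO draining 1 the difference in KO cells was 0.080. KO versus Het was 0.043 ± 0.15 in draining and 0.13 ± 0.15 in non-draining nodes. The draining value was -0.12 without KO draining 1, and it was 0.25 within numbers 1 and 2 and -0.16 within numbers 3 and 4. The non-draining value was -0.13 and 0.39 in these sets, so in each node the sets went opposite ways.

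The targets of the STAT2 and IRF9 complex did not pass either. Of 12 measured interferon-stimulated genes, 9 were higher in draining than non-draining Het cells (median 0.12) and 5 in KO cells (median -0.044), with 0 past the threshold in limma. Of all genes 52.8% were higher in the Het comparison (median 0.0081) and 50.7% in the KO comparison (median 0.0018). Oas1a, which senses double-stranded RNA, came to -0.46 ± 0.18 in KO cells, and Irf7, which amplifies interferon production, to 0.78 ± 0.28 for KO versus Het in the non-draining node; both had adjusted p values of 1.00 in limma.

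Cish, an inhibitor induced by STAT5, was higher on average in Het non-draining cells than in the other 3 groups, without passing over all genes. Its intensity in Het non-draining cells was 71.1, 50.8, 56.0 and 60.0, against 45.5, 36.0, 55.5 and 44.2 in Het draining cells. In KO cells it was 50.7, 33.3, 52.7 and 45.7 in draining and 41.8, 47.5, 57.1 and 46.9 in non-draining nodes. Het non-draining arrays were mostly the highest, with only 1 of 16 pairs in which a draining array lay above a non-draining one in Het cells, and the groups overlapped. The draining difference in Het cells was -0.39 ± 0.16 (SE, 95% interval -0.72 to -0.063), with an exact permutation p of 0.0571 and, in limma, an adjusted p of 1.00. In KO cells it was -0.095 ± 0.16, and 0.045 without KO draining 2. The interaction, which tests the difference between these, was 0.30 ± 0.22 with an unadjusted p of 0.196 in limma, and 0.44 with an unadjusted p of 0.0403 without KO draining 2; the adjusted p was 1.00 in both. KO versus Het in the non-draining node gave -0.29 ± 0.16, with KO above Het in 2 of 16 pairs and an exact permutation p of 0.0857. Within numbers 1 and 2 the draining difference in Het cells was -0.56 and within numbers 3 and 4 -0.22.

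Markers of other cells differed on average in the same comparisons. Of 11 measured T cell markers, 10 were lower in Het draining than in Het non-draining cells (median -0.41) and 11 were lower in KO than in Het non-draining cells (median -0.37), with 0 past the threshold in limma. Of all genes 52.8% and 51.9% were higher in these comparisons. In the draining node 10 of 11 were higher in KO than in Het cells (median 0.27), as were 49.1% of all genes. Cish differed there by 0.0043, and by 0.14 without KO draining 2. In KO cells 10 of 11 T cell markers were higher in draining than in non-draining nodes (median 0.24), as were 50.7% of all genes. Cish differed there by -0.095, and by 0.045 without KO draining 2. The marker counts include that array. The summed intensity of the T cell markers ran from 1195 to 2285 in Het draining and from 1358 to 2587 in Het non-draining arrays. It ran from 1352 to 2868 in KO draining and from 905 to 2509 in KO non-draining arrays, and these ranges overlapped. B cell markers were higher in KO than in Het non-draining cells in 10 of 10 cases (median 0.39, 3 with an unadjusted p below 0.05 and 0 past the threshold in limma), and cDC1 markers in 14 of 16 (median 0.21, 4 with an unadjusted p below 0.05 and 0 past the threshold in limma). Over the 16 arrays Cish and the mean of the T cell markers had a Pearson r of 0.54 (permutation p = 0.0289, adjusted p = 0.145 over 45 relations) and a Spearman rho of 0.65 (permutation p = 0.00742, adjusted p = 0.0835). These permutations shuffled all 16 arrays across groups and numbers, so their p values can be too small. Without the 2 arrays farthest from the median of the marker mean r was 0.57, and it was 0.39 within numbers 1 and 2 and 0.67 within numbers 3 and 4. The part of these cells in the Cish values was not tested.

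Stat4, which carries IL-12 and IL-23 signals, was lower on average in KO cells, and its arrays varied more than those of any other of the 9 genes. In Het draining cells its intensity was 148, 95.1, 242 and 263 on arrays 1 to 4, and in KO draining cells 186, 72.3, 118 and 119. In Het non-draining cells it was 120.0, 83.1, 166 and 185, and in KO non-draining cells 93.1, 29.2, 137 and 133. Array 2 was the lowest in each group, and KO and Het arrays overlapped in both nodes. KO versus Het was -0.56 ± 0.44 (SE) in the draining node, with an exact permutation p of 0.20, and -0.65 ± 0.44 in the non-draining node, with an exact p of 0.343. Over both nodes it was -0.60 ± 0.31 (95% interval -1.26 to 0.059), with an exact p of 0.104 and, in limma, an adjusted p of 1.00. Without KO non-draining 2, the lowest Stat4 value of all, the non-draining difference was -0.15 and the mean over nodes -0.35. Draining versus non-draining gave 0.38 ± 0.44 in Het cells, and 0.18 without Het draining 4. In KO cells it gave 0.47 ± 0.44, and -0.025 without KO non-draining 2, so its direction rested on that array. Without KO draining 2 the difference between nodes in KO cells was 0.70. Within numbers 1 and 2 the KO value was 1.14 and within numbers 3 and 4 it was -0.19.

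The KO difference of Stat4 in the draining node was measured closely among array numbers 3 and 4 and with a wide error among numbers 1 and 2. Among numbers 3 and 4 alone, KO draining cells gave 118 and 119 against 242 and 263 in Het draining cells, a difference of -1.08 ± 0.11 (SE) with an adjusted p of 0.0187 in limma, where 4 genes or 0.0201% of all passed. Over both nodes these numbers gave -0.73 ± 0.075 with an adjusted p of 0.0256, where 0.0251% of all genes passed. Among numbers 1 and 2 the draining difference was -0.031 ± 0.57, from 0.33 for number 1 and -0.39 for number 2, and the mean over nodes was -0.48. In the non-draining node the order was the other way, with -0.37 among numbers 3 and 4, where 0.01% of all genes and none of the 9 passed, and -0.92 among numbers 1 and 2. For draining versus non-draining in KO cells numbers 3 and 4 gave -0.19, where 0.00502% of all genes and none of the 9 passed. These fits have 2 arrays a group. The difference between the sets of numbers, a test added after the values were seen, was -1.05 ± 0.65 for KO versus Het in the draining node, with an adjusted p of 0.692 in limma and 0% of all genes called. Without KO draining 2 the draining difference over all numbers was -0.33, without Het draining 4 it was -0.36, and without Het draining 2 it was -0.84.

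Of genes that STAT4 switches on in lymphocytes and related genes, 7 were measured, and 0 passed in limma in any comparison of genotype or node. In the non-draining node 7 of 7 were lower in KO than Het cells, with a median of -0.13, against 3 of 7 in the draining node, with a median of 0.0055. Of all genes 51.9% were higher in the former comparison and 49.1% in the latter. In the non-draining node 11 of 11 T cell markers were also lower in KO cells (median -0.37). The part of T cells in the values of these 7 genes was not tested. Furin, a protease that matures growth factors, was -0.42 ± 0.15 in draining versus non-draining Het cells, with an adjusted p of 1.00 in limma.

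Stat3, Stat5a, Stat5b and Stat6 had mean differences between -0.12 and 0.13 on the log2 scale in the 4 comparisons. Stat3 had intensities of 1328, 1381, 1679 and 1691 in Het draining and 1832, 1309.9, 1343 and 1404 in KO draining cells, which overlap. KO versus Het was -0.051 ± 0.12 in draining and -0.0048 ± 0.12 in non-draining nodes, and the 95% intervals of Stat3 lay between -0.30 and 0.25 on the log2 scale. These fits pooled values that went opposite ways in the draining node: 0.19 within numbers 1 and 2 and -0.29 within numbers 3 and 4 (unadjusted p = 0.0197 in limma). The difference between those sets, a test added after the values were seen, was -0.49 ± 0.21, with an unadjusted p of 0.0392 and, in limma, an adjusted p of 0.556. Stat3 and Socs3 were the 2 of 9 genes with an unadjusted p below 0.05 in that test. The share of all genes below it was not computed, so this count has no background. After adjustment 0% of all genes passed. Without KO draining 2 the draining difference of Stat3 was 0.00098, and without KO draining 1 it was -0.16. Draining versus non-draining was 0.084 ± 0.12 in Het and 0.038 ± 0.12 in KO cells.

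Stat5a, the STAT of GM-CSF signals, ran from 254 to 346 in Het draining, 269 to 311 in Het non-draining, 244 to 326 in KO draining and 254 to 337 in KO non-draining cells. Its differences in the 4 comparisons lay between -0.059 and -0.015, each with an SE of 0.12. Stat5b, its close paralog, ran from 149 to 213, 167 to 232, 177 to 239 and 181 to 212 in the same order of groups. Its differences lay between -0.12 and 0.13 with an SE of 0.13. The groups of both genes overlapped in every comparison.

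Stat6, the IL-4 STAT, was the gene with the least spread. Het cells gave 599, 636, 702 and 697 in draining and 676, 636, 676 and 641 in non-draining nodes. KO cells gave 756, 539, 556 and 621 in draining and 569, 642, 609.5 and 616 in non-draining nodes. The KO arrays were lower than Het arrays in most pairs, with KO above Het in 5 of 16 in draining and 2 of 16 in non-draining nodes. The differences were -0.10 ± 0.10 and -0.11 ± 0.10 (SE), with exact permutation p values of 0.429 and 0.0857, and the adjusted p was 1.00 in limma in both. The draining difference moved when 1 array was left out, to -0.040 without KO draining 2 and to -0.20 without KO draining 1 (unadjusted p = 0.0361 in limma). Between nodes Stat6 differed by -6.7e-06 ± 0.10 in Het and 0.0087 ± 0.10 in KO cells.

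Socs1, the inhibitor of JAK kinases in interferon signalling, had its lowest value on array 2 of KO draining cells. Its intensity there was 69.4, 41.0, 79.3 and 86.0, against 66.0, 70.5, 84.1 and 73.1 in Het draining cells. In the non-draining node it was 66.6, 81.9, 71.2 and 77.7 in Het and 66.5, 58.6, 83.8 and 80.0 in KO cells. Apart from the array KO draining 2 the values ran from 58.6 to 86.0, and the groups overlapped. KO versus Het in the draining node was -0.14 ± 0.18 (SE), and 0.091 without KO draining 2; in the non-draining node it was -0.051 ± 0.18. Draining versus non-draining in KO cells was -0.10 ± 0.18, and 0.12 without KO draining 2.

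Socs3, which silences receptors that use gp130, had its highest values in KO cells. Its intensity was 78.3, 77.5, 128 and 112 in KO draining, 105, 86.5, 117 and 107 in KO non-draining, 90.9, 86.1, 105 and 89.9 in Het draining and 92.2, 94.96, 100.5 and 86.6 in Het non-draining cells. Arrays 3 and 4 of KO cells lay above every Het array, and arrays 1 and 2 of KO draining cells lay below every Het array. KO versus Het was 0.059 ± 0.15 (SE) in the draining node, with an exact permutation p of 0.80, and 0.15 ± 0.15 in the other node, with an exact p of 0.229. Without KO draining 2 the draining difference was 0.16. Within numbers 1 and 2 the mean over nodes was -0.077 and within numbers 3 and 4 it was 0.28. The difference between those sets, added after the values were seen, was 0.36 ± 0.14 with an unadjusted p of 0.0208 and, in limma, an adjusted p of 0.671. A dimmer probe set for Socs3 gave KO versus Het differences of 0.12 (draining) and 0.042 (non-draining), and the probe sets of this gene had a correlation of -0.18 over the 16 arrays (0.38 without KO draining 2). On the dimmer probe set KO draining 2 read 107.5, against 49.0, 62.7 and 59.6 on arrays 1, 3 and 4 of that group. The differences of that probe set include this array and were not computed without it.

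More genes passed in the comparison of array numbers than in those of genotype or node. In a test of the array number across the 4 groups, 1 of the 9 genes passed, Stat4 (F = 14.5, adjusted p = 0.0145 in limma), against a background of 3.36% of all genes. Its deviation from the group mean was -0.93 ± 0.39 (SD over the 4 groups) for number 2, 0.11 ± 0.40 for number 1, 0.38 ± 0.29 for number 3 and 0.44 ± 0.29 for number 4. The array numbered 2 was the lowest of its group in all 4 groups for Stat4 and for 1.89% of all genes. At an unadjusted p below 0.05 there were 3 genes, Stat4, Socs3 and Cish, against a background of 19.1%. Without KO non-draining 2 the adjusted p of Stat4 was 0.0539.

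**Figure D3:**
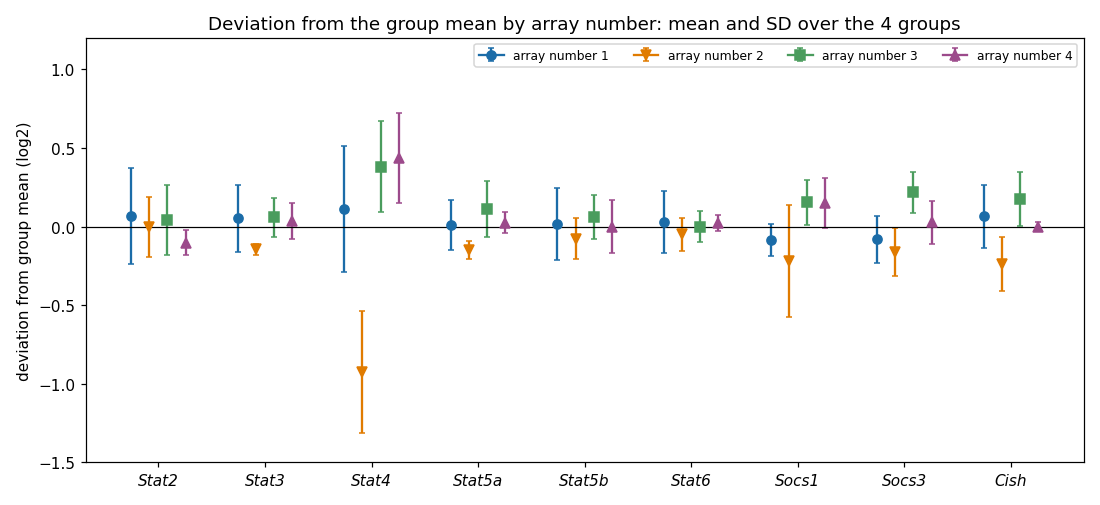
Deviation of each gene from its group mean, by array number, on the log2 scale; points are means and bars the SD over the 4 groups. Number 2 lies at -0.93 for Stat4, with numbers 3 and 4 above 0; for the other 8 genes no number lies beyond -0.25 or 0.25.

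Numbers 3 and 4 were then set against numbers 1 and 2, with group in the model. Of the 9 genes 8 were higher in numbers 3 and 4, with a median of 0.14 against -0.031 for all genes, and 1 passed, Stat4, where 7.53% of all genes passed as higher and 4.30% as lower (11.8% in all). Stat4 was higher by 0.82 ± 0.24 (SE, 95% interval 0.30 to 1.33), with an adjusted p of 0.0391 in limma and an exact permutation p of 0.0170 within groups. By group the Stat4 difference was 1.08 in Het draining, 0.81 in Het non-draining, 1.35 in KO non-draining and 0.029 in KO draining cells. Its call was lost on leaving out any of 11 of the 16 arrays and held without KO draining 1, 3 or 4, Het non-draining 1 or KO non-draining 1. Over all 16 such fits the adjusted p ran from 0.0034 to 0.0808 in limma and the difference from 0.62 to 1.01.

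Both Socs1 and Socs3 were also higher in numbers 3 and 4, without passing over all genes. Socs1 gave 0.30 ± 0.11 (SE), with an adjusted p of 0.0703 in limma and an exact permutation p of 0.0108, and 0.21 without KO draining 2. Socs3 gave 0.24 ± 0.084, with an adjusted p of 0.0686 in limma and an exact permutation p of 0.0232. Its dimmer probe set gave -0.092 with KO draining 2 included. At an unadjusted p below 0.05 these were, with Stat4, 3 of 9 genes, against a background of 29.0%. The remaining STAT genes gave between -0.063 (Stat2) and 0.14 (Stat5a), and Cish 0.17 ± 0.10.

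Marker genes of the cells moved with the array number as well. Where 11.8% of all genes passed and 42.2% were higher in numbers 3 and 4 than in numbers 1 and 2, 11 of 11 T cell markers were higher (median 0.47, 6 past the threshold in limma), 6 of 7 migratory dendritic cell markers were higher (median 0.33, 2 past it, Socs2 and Nudt17), and 12 of 16 cDC1 markers were lower (4 past it as lower and 2, Batf3 and Zbtb46, as higher). The summed T cell intensity ran from 905 to 2587 in numbers 1 and 2 and from 1326 to 2868 in numbers 3 and 4, and that of the migratory markers from 9118 to 18400 and from 14270 to 18100. The permutations for the relations below shuffled all 16 arrays across groups and numbers, so their p values can be too small. Stat4 and the mean of the migratory markers had a Pearson r of 0.71 over the 16 arrays (permutation p = 0.00368, adjusted p = 0.055 over 45 relations) and a Spearman rho of 0.75 (permutation p = 0.00116, adjusted p = 0.0261). Without the 2 arrays farthest from the median of that mean r was 0.67; within numbers 1 and 2 it was 0.65 and within numbers 3 and 4 0.042, so the relation did not hold in the latter. Stat3 had an r of 0.67 with the same mean (permutation p = 0.00489, adjusted p = 0.055) and a rho of 0.79 (permutation p = 0.00045, adjusted p = 0.0202), with an r of 0.69 without those 2 arrays, 0.78 within numbers 1 and 2 and 0.20 within numbers 3 and 4. Stat5a had an r of 0.71 (permutation p = 0.00145, adjusted p = 0.0515) and a rho of 0.66 (permutation p = 0.0062, adjusted p = 0.0835), with 0.57 without those arrays, 0.86 within numbers 1 and 2 and -0.072 within numbers 3 and 4. Socs1 had an r of 0.77 (permutation p = 0.00229, adjusted p = 0.0515) and a rho of 0.50 (permutation p = 0.051, adjusted p = 0.287), but 0.26 without those arrays, on which its relation rests, with 0.70 within numbers 1 and 2 and -0.21 within numbers 3 and 4. None of these 4 relations held within numbers 3 and 4. With the T cell markers Stat4 had an r of 0.44 (permutation p = 0.0866, adjusted p = 0.30). Without the 2 arrays farthest from the median of the T cell marker mean this r was 0.036. It was 0.40 within numbers 1 and 2 and -0.62 within numbers 3 and 4. The part of these cells in the values of these genes was not tested.

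Other genes of the JAK-STAT pathway were read by the same comparison of array numbers, with its background of 7.53% of all genes passing as higher and 4.30% as lower. Of 3 JAK kinases 2 were higher in numbers 3 and 4 and 0 passed. Of 5 other STAT and SOCS family genes 2 were higher; Socs2, an inhibitor of growth hormone signalling, passed as higher by 0.46 ± 0.14 and Socs7 as lower (-0.32). Among 12 other inhibitors 8 were higher and 2 passed, the phosphatases Ptpn2 (0.42) and Ptpn6 (0.34), which remove phosphate from JAK and STAT proteins. Among 25 receptor genes 18 were higher; 3 passed as higher, Il7r (0.53), Il15ra (0.47) and Il27ra (0.45), and Il6st, which encodes gp130, passed as lower (-0.28).

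Of 16 STAT3 and STAT5 targets 11 were higher in numbers 3 and 4. Of these 4 passed, the growth and survival genes Myc (0.50), Ccnd2 (0.49) and Mcl1 (0.26) and the stress gene Gadd45g (0.38), and Tnfrsf1a, a TNF receptor, passed as lower (-0.41). Of 10 STAT6 targets 9 were higher and 2 passed, the chemokine Ccl17 (0.85 ± 0.14) and Socs2. Of 7 STAT4 targets and related genes 5 were higher and 2 passed, Il18r1, an IL-18 receptor chain, by 0.58 and the transcription factor Hlx by 0.49. Of 12 interferon-stimulated genes 7 were higher and 2 passed, Bst2, which tethers budding virions, by 0.76 ± 0.13 and Ifit1, which binds viral RNA, by 0.65 ± 0.18. The medians of the 8 lists lay between -0.049 (the other STAT and SOCS genes) and 0.20 (STAT3 and STAT5 targets), against -0.031 for all genes.

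**Figure D4:**
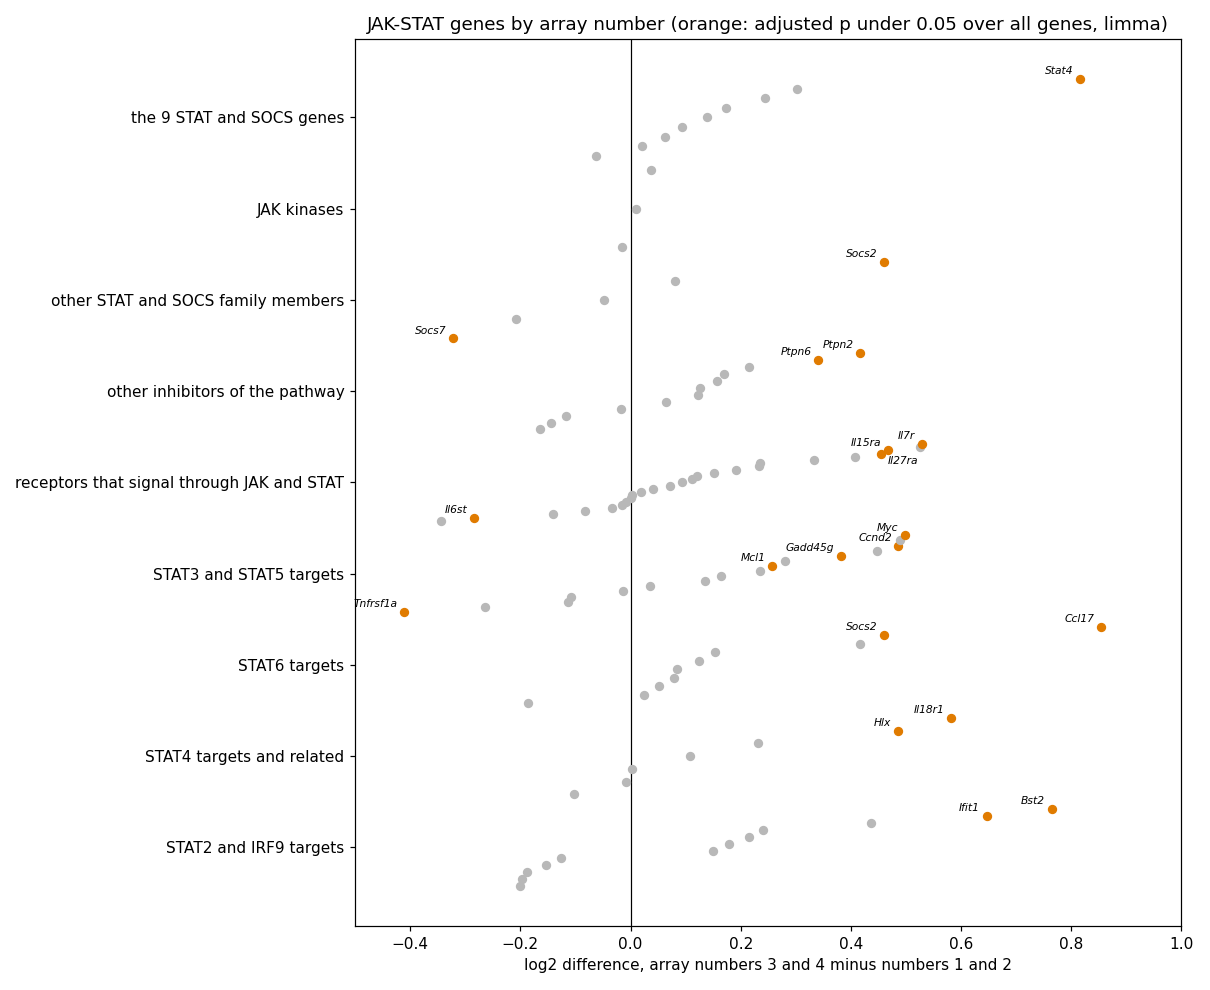
Log2 difference between array numbers 3 and 4 and numbers 1 and 2 for the 9 genes and 8 lists of JAK-STAT pathway genes; each point is a gene, and orange points with names passed an adjusted p of 0.05 over all genes in limma. Stat4 is the orange point among the 9 genes, at 0.82, and Ccl17, at 0.85, is the highest point plotted.

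In the comparisons of genotype and node 0 genes of these lists passed in limma. In KO versus Het cells of the draining node the smallest unadjusted p among receptors belonged to Ifngr1, a chain of the interferon gamma receptor (0.57 ± 0.23), and among the other STAT and SOCS genes to Socs4 (0.33 ± 0.13). Fosl2, an AP-1 factor in the STAT3 and STAT5 list, was -0.75 ± 0.19 in draining versus non-draining Het cells. In the non-draining node Il2ra, the IL-2 receptor alpha chain, was -0.69 ± 0.26 in KO versus Het cells. Each of these 4 genes had an adjusted p of 1.00 in limma.

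Correlations between the genes are given as descriptions, over 16 arrays that share groups and array numbers. Of the 36 pairs among the 9 genes 31 had a Pearson r above 0, with a median of 0.37. Stat3 had an r of 0.73 with Stat5a, 0.70 with Stat4, 0.70 with Stat6 and 0.68 with Stat5b. Socs1 and Socs3 had an r of 0.65, and the lowest value, -0.31, was that of Stat6 and Socs3. Among 9473 other genes at or above the median level, the pattern most like Stat4 was that of Kcnn1 (r = 0.93), followed by Slc27a3 (0.91) and Rsbn1l (0.91). The pattern most like Socs1 was that of Spcs1 (r = 0.95), that most like Socs3 was Acaa1a (0.92), and that most like Cish was Zdhhc18 (0.91). For Stat2 it was Stip1 (0.79), for Stat3 Rab8b (0.87), for Stat5a Myo1c (0.90), for Stat5b Dhx30 (0.89) and for Stat6 Actr1a (0.92).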

How the data were processed

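The authors deposited linear intensity values that had been normalized by RMA, per the submitters' processing notes; its software is not given in the sources used here. This method gives all arrays the same distribution and pulls dim probe sets together, so small differences of dim genes are understated. Of 35556 probe sets 21789 had 1 gene symbol, 1621 several and 12146 none, and the brightest probe set per gene was kept. Log2(intensity + 1) was fitted with limma 3.58.1 in R 4.3.3 over 16 arrays with 12 residual degrees of freedom, two-sided, with Benjamini-Hochberg adjustment and a threshold of 0.05; the scripts were tested on simulated data. Single genes were permuted exactly over arrays, within groups or strata. Correlations with marker lists were tested by random shuffles of all 16 arrays, without regard to group or number. Array medians lay between 38.6 and 40.8; the number of arrays limits the precision. The 9 genes and all lists were chosen with earlier results of these data known. All 9 are named, with list genes past the threshold or, failing that, of small unadjusted p, and the 3 genes of highest correlation with each. Some list genes were not analysed here. Alternatives covered the pseudocount, level filter, probe sets, blocks, subsets of numbers, centring, variance model and left-out arrays.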

Additional observations from a re-analysis of the deposited data

Results flagged for a closer look

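In Het non-draining cells the Stat5a intensity of array 2, 269, lay far below those of the other 3 arrays, which ran from 304 to 311: its gap to the nearest was 0.85 of the whole range, above the 95% critical value of Dixon's ratio for 4 values. This was 1 of 36 sets of 4 arrays examined for the 9 genes, and chance alone gives about 1 in 20.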

How the results depend on the processing

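For genotype and node, the 9 genes stayed at 0 past the threshold under each alternative except the fits within numbers 3 and 4, where 1 (Stat4) passed for KO versus Het in the draining node and 1 (Stat4) for the mean of both nodes; the cause was not tested. With a pseudocount of 16, 0 passed for numbers 3 and 4 minus numbers 1 and 2, with 2090 of all genes against 2359. Leaving out 1 array gave 0 to 2 there, with 1460 to 3398 of all genes, and 0 to 1 for the test of array number, with 277 to 1073 of all genes against 670. The dimmer Socs3 probe set, added after the values were seen, gave the opposite direction between numbers over all 16 arrays, at -0.092. That value includes KO draining 2, which read 107.5 on this probe set, and it was not computed without that array. Same-numbered arrays of different groups had correlations between -0.056 and 0.48, with 18 of 24 over 0.1, and 9 of 16 arrays matched their own number best. Same-numbered arrays thus often resembled each other, but the labels do not state pairs. The main fits of genotype and node left the number out, and a replicate block was an alternative. With the replicate block, KO versus Het of Stat4 was -0.56 in the draining node (unadjusted p = 0.0330, adjusted p = 0.997 in limma) and -0.60 over both nodes (unadjusted p = 0.00281, adjusted p = 0.591 in limma), and 0 of the 9 genes passed. Without the block these 2 unadjusted p values of Stat4 were 0.225 and 0.0716 in limma. Of 2133 single-gene results under alternatives, 2052 kept their side of the threshold and, outside the test of array number, moved by no more than an SE. The test of array number has no SE, so its shifts were not judged. Some alternatives cannot change a difference, such as the replicate block or leaving out an array of a group not compared. The count is therefore not a measure of stability.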
